A study of Homo sapiens with 13 samples.

Results

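SOX transcription factors bind DNA through a high mobility group (HMG) box that grips the minor groove and bends the helix. Those considered here were the 10 members of the SOXB, SOXC and SOXD groups with known roles in the nervous system: SOX1, SOX2 and SOX3 (SOXB1), SOX14 and SOX21 (SOXB2), SOX4, SOX11 and SOX12 (SOXC), and SOX5 and SOX6 (SOXD). They were chosen by name, out of 20033 protein-coding genes of GENCODE release 44. For each gene, accessible regions were described over its transcription start site (TSS, 1 kb to either side), its body and 100 kb to either side of it, and set side by side between 2 small cell lung cancer (SCLC) lines. H82 and H146 are established human lines. The ATAC-seq libraries, made with the Tn5 transposase that cuts open chromatin, came from 4 untreated and 3 FHD-286 samples of H146 and from 3 untreated and 3 FHD-286 samples of H82. FHD-286 inhibits SMARCA4 and SMARCA2, the ATPases of the SWI/SNF chromatin remodeler, and was given at 100 nM for 14 days. The values were 1 list of regions per line on hg38, in which a call in a single library of that line, treated or not, was enough for a region to appear. A region carried a start and an end and no height, read count or library.

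For that reason FHD-286 was not compared with untreated cells, no spread between replicates could be given, and every difference below is a description of 1 list against 1 list, with no test. The depth behind the lists was unknown. H82 and H146 differed in their number of libraries and may differ in depth and DNA copy number, which cannot be told apart from a difference between the lines. H82 had 206927 regions and H146 had 174093, so values over all protein-coding genes are given beside those of the SOX genes. The labelled cell type was checked on neuroendocrine (NE) genes: INSM1, SYP, CHGA, DLL3 and NCAM1 had a region at the TSS in both lines, and NEUROD1 had one in H82 alone. All 4 of the low-NE or other subtype genes looked up (POU2F3, YAP1, REST and VIM) also had one in both lines.

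SOXB1 factors activate transcription and keep neural progenitors undifferentiated, and SOX2 also acts in the lung epithelium and in pluripotent cells. SOXB2 factors bind like sites and mostly repress, favouring neuronal differentiation. SOXC factors activate neuronal genes as progenitors leave the cell cycle, while SOXD factors lack an activation domain of their own, pair through a coiled coil and tune the output of other SOX proteins.

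Nearly all of these genes had an open promoter at their 5′ end in both lines. At SOX6 the starts at that end belong to transcripts that GENCODE does not annotate as protein-coding. A region lay within 1 kb of the TSS at 10 of 10 genes in H82 and at 9 of 10 in H146, beside 80.5% and 77.2% of all protein-coding genes. SOX3 was the exception, with a region in H82 and none in H146, a state shared by 5.1% of all genes. Most of these promoter regions were wide, although those of SOX3 and SOX6 in H82 (897 and 1693 bp) and of SOX1 in H146 (1052 bp) were narrower than the median over all genes. Their median width was 3941 bp over the 10 regions of H82 and 3897 bp over the 9 of H146, where the median over all genes with a TSS region was 1774 and 1708 bp. All but that of SOX3 extended beyond the TSS on both sides, as the map of the promoter regions shows.

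**Figure D1:**
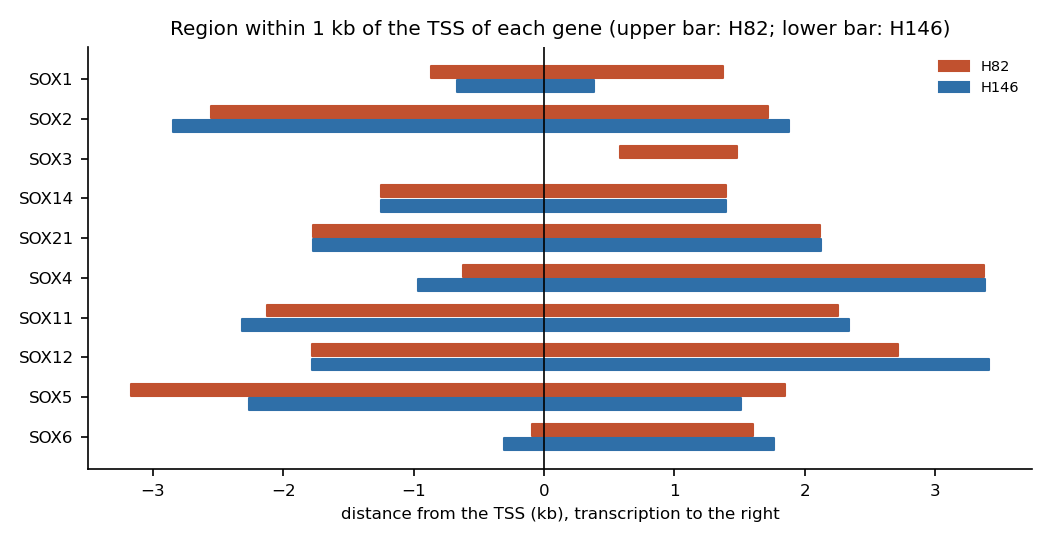
The region within 1 kb of the TSS of each SOX gene, drawn from its start to its end against the distance from the TSS in kb, with H82 above H146 (1 pooled list of regions per line, no replicates). The regions of SOX14 coincide, SOX1 is wider in H82 (2244 against 1052 bp), and SOX3 has a region in H82 only, which begins 581 bp inside the gene.

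Across the whole windows, the share of the DNA lying in regions ranged from 1.43% at SOX3 to 35.9% at SOX2 in H82, and from 0.309% to 44.3% at the same genes in H146. The medians over the 10 genes were 7.55% in H82 and 6.80% in H146, near the medians over all genes of 7.40% and 6.04%. However, all but SOX12 and SOX6 had no other protein-coding TSS in their window. Over the 1969 genes with no other such TSS the medians were lower, at 4.07% and 3.49%. The covered share was at least 1.5-fold higher in H82 at 1 of the 10 genes, SOX3, where 28.4% of all genes were. It was at least 1.5-fold higher in H146 at 0 of the 10, where 3.96% of all genes were. With no minimum to the fold, 6 of the 10 genes had the higher share in H146, beside 34.6% of all genes, a comparison chosen after the values were seen. The median log2 ratio of H82 to H146 was -0.09 over the SOX genes and 0.20 over the 19829 genes with regions in both lines. When each ratio was divided by that of the 5 Mb to either side, the split became 5 genes against 5. By the number of regions in place of the covered share, it turned to 3 genes higher in H146 and 7 in H82. Over all genes the median number per window was also higher in H82, at 25 against 20 in H146. The split of all genes by number was not counted.

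**Figure D2:**
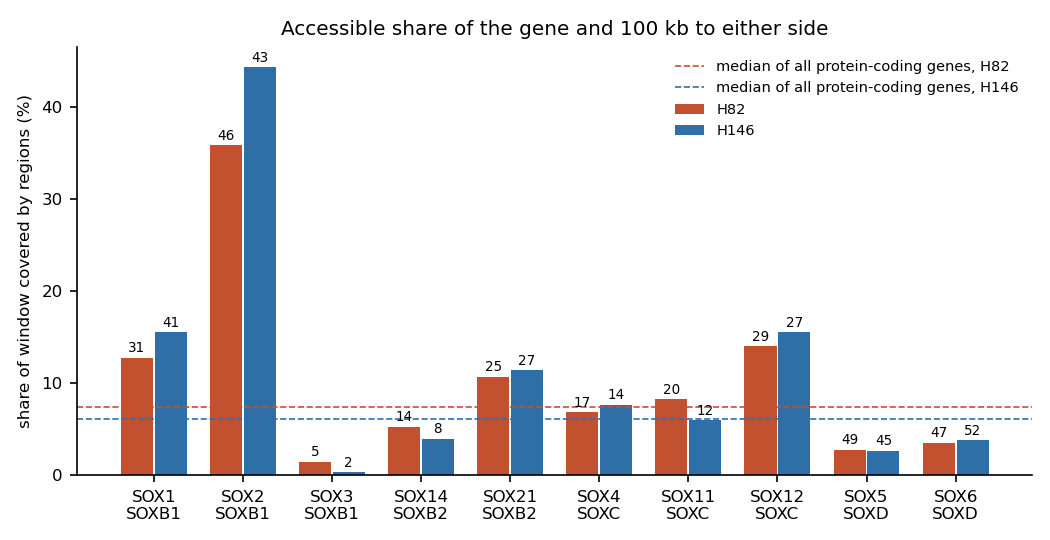
Share of each window (gene and 100 kb to either side, in %) covered by accessible regions in H82 and H146, with the number of regions above each bar and, dashed, the median of all protein-coding genes (7.40% in H82, 6.04% in H146); there are no replicates and no error bars. SOX2 stands highest at 35.9% and 44.3%, SOX3 lowest at 1.43% and 0.309%.

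**Figure D3:**
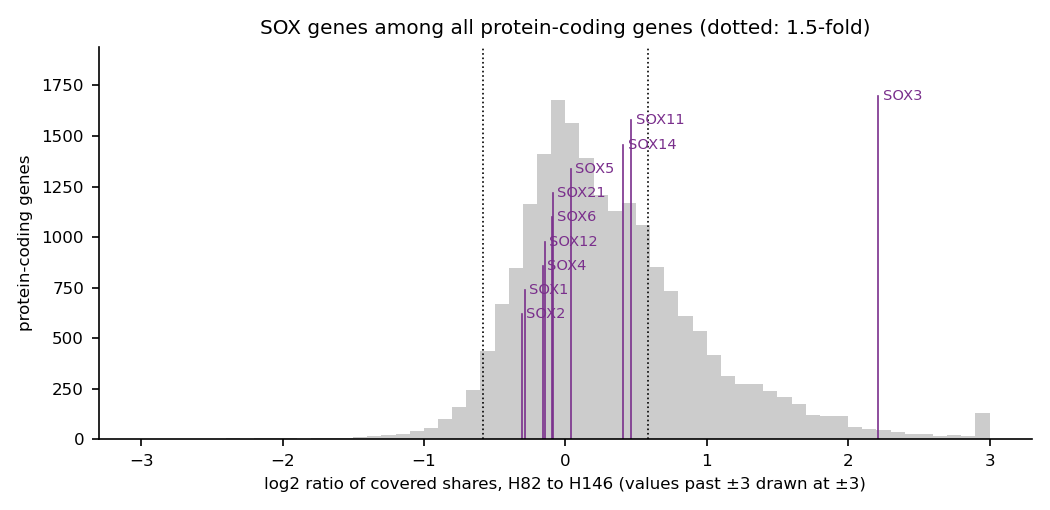
Histogram of the log2 ratio of covered shares, H82 to H146, over the 19829 protein-coding genes with regions in both lines, with the 10 SOX genes as purple lines whose heights only separate the labels. SOX3 lies at 2.21, past the dotted 1.5-fold mark, and the other 9 genes lie between -0.30 and 0.47.

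In number, the windows held 283 regions in H82 and 271 in H146. Regions with 1 bp or more in common with a region of the other line were counted as shared, and the rest as line-only. By this measure 76 of the 283 H82 regions (26.9%) and 75 of the 271 H146 regions (27.7%) were line-only, where over the whole lists the shares were 40.7% and 29.5%. The near-even counts depended on the longer H82 list: with its narrowest regions left out until it held as many as H146, 61 of 241 H82 regions and 100 of 271 H146 regions were line-only. Regions whose both ends were at the same base in the other line numbered 35, and over the whole lists they made up 9.27% of H82 and 11.0% of H146 regions. Line-only regions were narrow, with medians of 388 bp in H82 and 334 bp in H146, beside 600 and 752 bp for the shared ones. Line-only regions of the whole lists were much the same, at 377 and 315 bp. Only 7 line-only regions of H82 and 3 of H146 reached 1 kb. Base composition followed position: the promoter regions had a median GC content of 60.9% in H82 and 59.2% in H146. Away from the TSS the medians were 46.1% and 45.6% for shared regions and 44.01% and 43.4% for line-only regions.

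The line-only regions were also counted by group. In the SOXB1 windows 6 of 82 H82 regions (7.32%) and 20 of 86 H146 regions (23.3%) were line-only. The genes differed: SOX1, SOX2 and SOX3 had 3 of 31, 0 of 46 and 3 of 5 in H82. In H146 they had 12 of 41, 8 of 43 and 0 of 2. In the SOXB2 windows the counts were 10 of 39 (25.6%) in H82 and 5 of 35 (14.3%) in H146. That lean came from SOX14 (6 of 14 and 0 of 8), with SOX21 at 4 of 25 and 5 of 27. In the SOXC windows they were 27 of 66 (40.9%) and 15 of 53 (28.3%), near the whole-list 40.7% and 29.5%. SOXD windows were nearly even, at 33 of 96 (34.4%) and 35 of 97 (36.1%).

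**Figure D4:**
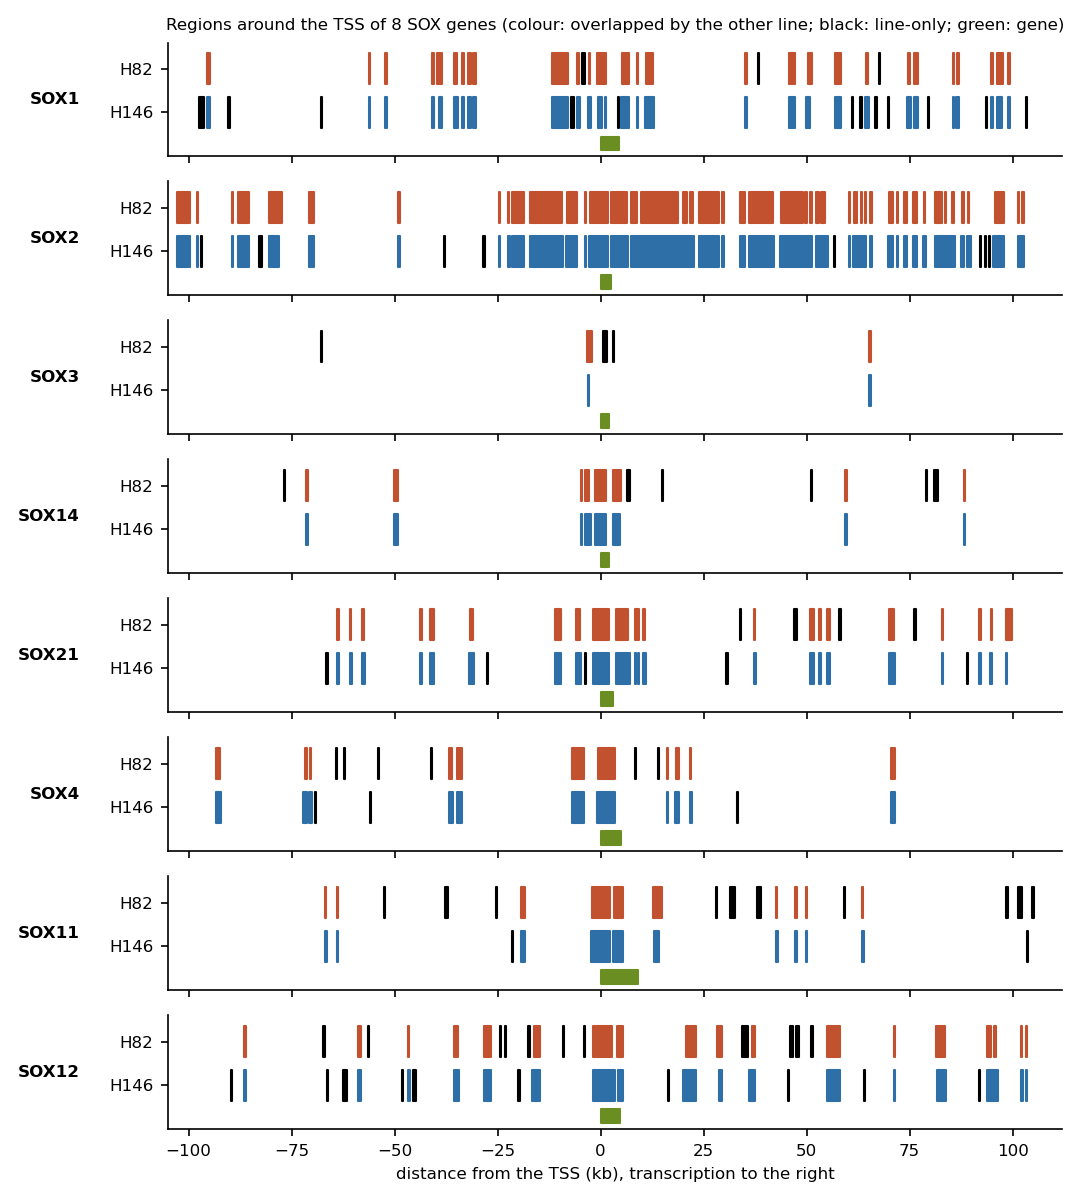
Regions of H82 and H146 around the TSS of the 8 short SOX genes, against distance from the TSS in kb with transcription to the right; coloured blocks overlap the other line, black blocks are line-only, the gene is green, and blocks are drawn at least 0.25 kb wide. At SOX2 none of the 46 H82 regions and 8 of the 43 H146 regions are black, and at SOX3 only 2 H146 regions are present.

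SOX2, a SOXB1 factor of neural progenitors whose gene is amplified in some SCLC tumors, had the most accessible window of the 10. Its window (chr3, gene at 181711925-181714436 on the plus strand, with no other protein-coding TSS within it) was covered to 35.9% in H82 and 44.3% in H146. That placed it 650th in H82 and 153rd in H146 of the 20033 genes. Among the 1969 genes with no other protein-coding TSS in their window, whose median share was 4.07% in H82 and 3.49% in H146, it stood 12th and 4th. The promoter region spanned 4274 bp in H82 (chr3:181709370-181713643) and 4720 bp in H146 (chr3:181709084-181713803). It took in the TSS and most of the single exon in both lines.

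Every one of the 46 H82 regions around SOX2 overlapped an H146 region, and 72.1 of the 72.7 kb they covered lay inside H146 regions. H146 covered 89.8 kb, and 8 of its 43 regions, each of 210 to 692 bp, had no H82 counterpart. The difference lay mostly downstream of the gene, where 46.4% of the 100 kb was covered in H82 and 61.2% in H146, against 24.5% and 26.6% upstream. The widest H146 region, 15506 bp at chr3:181719204-181734709, held 4 separate H82 regions, the widest of them 9169 bp at chr3:181721608-181730776. In 10-kb steps from the TSS, H146 was higher in 16 of the 20 steps, H82 in 1, and 3 were equal. From 10 to 20 kb downstream the cover was 88.9% in H82 and 100% in H146. The long non-coding gene SOX2-OT runs through and past SOX2 over 847 kb and contains this whole window. It showed the same order, with 135 regions and 18.4% covered in H82 and 145 regions and 22.3% in H146. This order is in part that of the window itself. On number alone the SOX2 window went the other way (46 in H82 against 43), since neighbouring H82 regions lay within single H146 regions.

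SOX1, expressed in early neural plate and progenitors, had 31 regions in H82 and 41 in H146 (chr13, gene at 112067149-112071706). They covered 12.7% and 15.5% of the window. Line-only regions numbered 3 in H82 and 12 in H146, the widest of which was 1147 bp at chr13:111969628-111970774, its near edge 96375 bp upstream of the TSS. At the promoter itself the order was the opposite: the H82 region measured 2244 bp (chr13:112066281-112068524) and the H146 region 1052 bp (chr13:112066485-112067536). A separate H146 region of 298 bp (chr13:112068227-112068524) also lay inside the H82 region and ended at the same base, so H146 covered 1350 of the 2244 bp in 2 pieces. A region of about the same extent in both lines, 3813 bp in H82 and 3845 bp in H146, lay upstream over the start of the non-coding gene SOX1-OT, which had 10 regions in H82 and 11 in H146.

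SOX3, the X-linked SOXB1 gene (chrX, gene at 140502985-140505069 on the minus strand), was the one with the largest ratio between the lines and the lowest cover in both. H82 had 5 regions over 2.90 kb and H146 had 2 over 0.625 kb, a ratio of 4.64. The H82 promoter region (chrX:140503592-140504488, 897 bp) lay inside the single exon, with its near edge 581 bp downstream of the TSS, so it did not reach the TSS itself. The 2 H146 regions, of 260 bp at chrX:140507939-140508198 and 365 bp at chrX:140439483-140439847, both overlapped wider H82 regions, of 1103 and 410 bp. The ratio over the whole of chromosome X was 1.41 and that over the surrounding 5 Mb was 1.24, both in the direction of H82. The role of chromosome copies in this difference was not tested. SOX3 ranked 19012th in H82 and 19656th in H146, and its cover in H82 was below that of 94.9% of genes.

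The sequences just before the SOX2 and SOX3 starts are shown because the first lay wholly within a region in both lines and the second in neither. They are the 250 bases before the RefSeq start on GRCh38.p14, read along the gene: SOX2 at chr3:181711675-181711924 (plus strand) and SOX3 at chrX:140505070-140505319 (minus strand). In each printed sequence, capitals mark a match on either strand to 1 of 6 words: AACAATG and AACAAAG (SOX), ATGCAAAT (the POU octamer, whose factors pair with SOX2), CAGATG and CAGCTG (E-boxes of neural bHLH factors) and TAATCC (OTX2). None of these words overlaps another in what is printed.
SOX2 promoter: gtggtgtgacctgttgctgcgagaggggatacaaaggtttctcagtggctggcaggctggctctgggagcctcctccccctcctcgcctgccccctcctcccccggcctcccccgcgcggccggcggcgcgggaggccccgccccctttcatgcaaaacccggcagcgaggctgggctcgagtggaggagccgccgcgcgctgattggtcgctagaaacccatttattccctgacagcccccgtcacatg
SOX3 promoter: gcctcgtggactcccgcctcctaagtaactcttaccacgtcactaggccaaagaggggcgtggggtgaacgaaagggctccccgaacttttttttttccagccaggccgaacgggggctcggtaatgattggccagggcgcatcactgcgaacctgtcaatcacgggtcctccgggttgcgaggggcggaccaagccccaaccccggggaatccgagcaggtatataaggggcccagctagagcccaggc
Both are rich in G and C, 68.8% over SOX2 with 20 CpG and 61.6% over SOX3 with 17 CpG, and neither held a match. Over 35116 RefSeq promoters of this length, 2.87% held AACAATG, 4.50% AACAAAG, 1.63% ATGCAAAT, 12.2% CAGATG, 14.0% CAGCTG and 5.62% TAATCC. RefSeq promoters were found for 8 of the 10 genes. The gene with the highest cover and the gene with the lowest thus both started in CpG-rich DNA.

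SOX14, a SOXB2 repressor found in subsets of interneurons, had an identical promoter region in both lines (chr3:137763063-137765712, 2650 bp). H82 had 14 regions in its window and H146 had 8, covering 5.27% and 3.97%. All 8 H146 regions overlapped H82 regions, and 6 of the 14 H82 regions were line-only, the widest 1070 bp at chr3:137845123-137846192, 81.3 kb downstream.

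SOX21, the other SOXB2 gene and an antagonist of SOXB1 targets, differed little. Its promoter regions shared an end and measured 3887 bp in H82 (chr13:94710429-94714315) and 3897 bp in H146 (chr13:94710419-94714315). The window held 25 regions over 10.7% in H82 and 27 over 11.4% in H146, with 4 and 5 of them line-only. SOX21-AS1, the antisense transcript that overlaps the gene, had 11 regions over 13.4% of its length in H82 and 15 over 16.0% in H146.

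Of the SOXC genes, SOX4 and SOX11 are broadly expressed activators of neuronal genes, and SOX12 is the weakest activator of the group. At SOX4 (chr6) the promoter region measured 3994 bp in H82 (chr6:21593134-21597127) and 4345 bp in H146 (chr6:21592785-21597129). The window had 17 regions over 6.84% in H82 and 14 over 7.62% in H146. More regions were thus listed in H82 and more bases in H146.

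SOX11 (chr2) leaned to H82. Its window held 20 regions over 8.26% in H82 and 12 over 5.98% in H146, a ratio of 1.38, and 10 of the H82 regions but 2 of the H146 regions were line-only. The chromosome as a whole had a ratio of 1.29, and the surrounding 5 Mb had 1.11. The promoter went the other way, with 4376 bp in H82 (chr2:5690262-5694637) and 4658 bp in H146 (chr2:5690067-5694724), and a second shared region of 2350 and 2448 bp lay over the 3′ untranslated part of the exon. The widest H82-only region there was 1149 bp at chr2:5723857-5725005, 32.0 kb downstream.

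SOX12 (chr20) lay among other genes, with 7 other protein-coding TSSs in its window, so its cover mixed several promoters. The window held 29 regions over 14.0% in H82 and 27 over 15.5% in H146. The promoter region began at the same base in both lines and ran for 4491 bp in H82 (chr20:323777-328267) and 5189 bp in H146 (chr20:323777-328965). Of the 7 neighbours, DEFB132 had a TSS region in H82 alone, DEFB129 in neither and the remaining 5 in both.

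The SOXD genes are long, SOX5 spanning 1033 kb and SOX6 773 kb, and most of their regions fell inside the gene. Over the SOX5 window (chr12) 49 regions covered 2.73% in H82 and 45 covered 2.66% in H146. Within the gene body lay 45 and 41 of them, and 33 in each line were shared. SOX5 promotes neuronal subtype identity in the cortex and, with SOX6, cartilage formation. Its 5′ promoter region was 5018 bp in H82 (chr12:24560693-24565710) and 3774 bp in H146 (chr12:24561034-24564807).

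SOX5 has 20 distinct annotated transcript starts. Of these, 11 had a region within 1 kb in both lines, 9 had none in either, and none differed between the lines. The 11 fell into 2 clusters, 5 at the 5′ end and 6 from 612 to 613 kb inside the gene, where a single shared region of 1864 bp in H82 and 2003 bp in H146 lay (chr12:23949323-23951325 in H146). At this distance the lines had the same starts in or near accessible DNA.

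SOX6 (chr11) had 47 regions over 3.52% in H82 and 52 over 3.76% in H146. Its line-only counts were 17 and 23, the most of any of the 10 genes in both lines. Its window of 973 kb was also longer than all but that of SOX5. As a share of regions these counts were 36.2% in H82 and 44.2% in H146. In H82 the shares of SOX3, SOX11, SOX14 and SOX12 were higher, and in H146 none was. The 5′ promoter region measured 1693 bp in H82 (chr11:16737988-16739680) and 2068 bp in H146 (chr11:16737827-16739894). The widest region over the gene was not at the 5′ end but 133 to 134 kb inside, at a pair of internal starts, with 3995 bp in H82 (chr11:16604360-16608354) and 4914 bp in H146 (chr11:16603262-16608175). Of 17 distinct starts, 4 had a region in both lines, 10 in neither and 3 in H146 alone. None of the 4 starts with a region in both lines had a transcript annotated as protein-coding in GENCODE. No SOX6 start with such a transcript had a region in H82, and only the 3 starts of H146 alone had one in H146. The 3 starts of H146 alone lay side by side, 337 kb inside the gene, and shared 1 region of 388 bp.

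**Figure D5:**
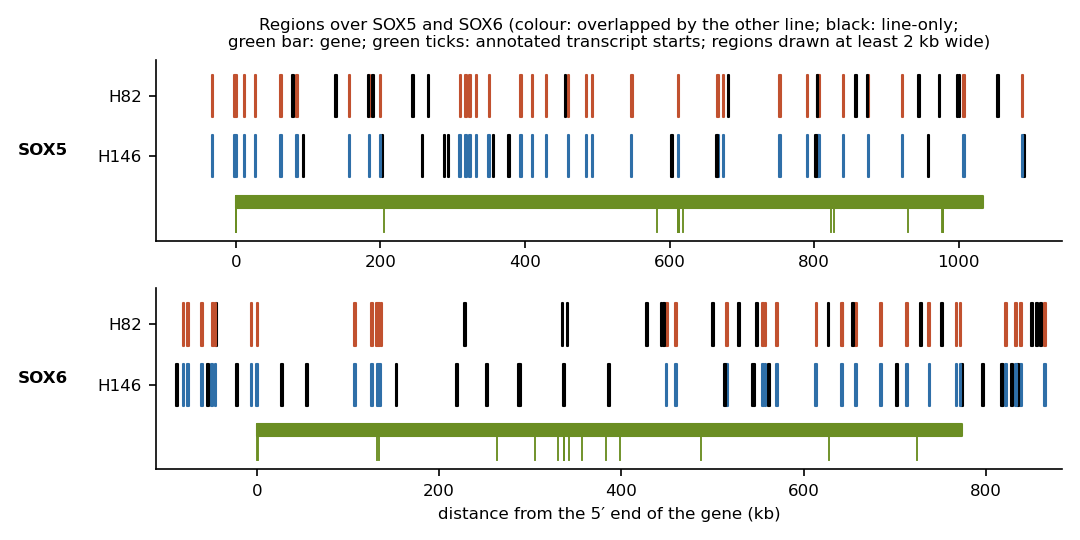
Regions of H82 and H146 over SOX5 (top) and SOX6 (bottom) and 100 kb to either side, against distance from the 5′ end of the gene in kb; coloured blocks overlap the other line, black blocks are line-only, the green bar is the gene, green ticks are annotated transcript starts, and blocks are drawn at least 2 kb wide. Shared blocks stand at the 5′ ends and at the internal starts near 612 kb in SOX5 and 133 kb in SOX6.

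Annotation places 15 non-coding genes over these 10 genes or within 1 kb of their TSS. A region lay within 1 kb of the start of 10 of the 15 in both lines and of 5 in neither, and 0 differed. The share over all non-coding genes was not counted. Besides SOX1-OT, SOX2-OT and SOX21-AS1, the 10 were ENSG00000289435, which starts 187 bp from the SOX2 TSS on the other strand, ENSG00000283480 at SOX4, LINC01248 and ENSG00000242540 at SOX11, NRSN2-AS1 at SOX12, MIR920 in SOX5 and MIR6073 in SOX6. The 5 were SOX5-AS1 and ENSG00000256473 in SOX5, and ENSG00000254878, AKR1B1P3 and RN7SL188P in SOX6. ENSG00000289435, ENSG00000283480 and LINC01248 start inside the promoter regions of SOX2, SOX4 and SOX11, so those regions are counted again here.

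The centres of 3 of the widest line-only regions over 1 kb from any protein-coding TSS are shown as the DNA that was listed in 1 line alone. They are 300 bases each, hg38, plus strand. The H82 one lies in an intron of SOX6 (chr11:16292635-16292934, in a region of 2210 bp). Those of H146 lie in an intron of SOX5 (chr12:24206215-24206514, in a region of 1495 bp) and upstream of SOX1 (chr13:111970052-111970351). Capitals mark the same words as above.
SOX6 intron, H82-only: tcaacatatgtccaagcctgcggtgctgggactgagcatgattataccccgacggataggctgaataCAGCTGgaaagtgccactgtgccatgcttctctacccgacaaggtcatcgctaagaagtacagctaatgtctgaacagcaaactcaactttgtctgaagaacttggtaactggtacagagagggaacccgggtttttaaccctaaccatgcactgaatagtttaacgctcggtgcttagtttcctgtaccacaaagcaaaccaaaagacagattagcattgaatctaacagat
SOX5 intron, H146-only: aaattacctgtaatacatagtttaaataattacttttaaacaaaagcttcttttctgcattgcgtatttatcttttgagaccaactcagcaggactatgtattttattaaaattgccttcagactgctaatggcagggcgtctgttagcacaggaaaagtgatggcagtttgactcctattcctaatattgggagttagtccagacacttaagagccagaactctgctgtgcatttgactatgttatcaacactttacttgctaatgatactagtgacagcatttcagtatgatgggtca
SOX1 upstream, H146-only: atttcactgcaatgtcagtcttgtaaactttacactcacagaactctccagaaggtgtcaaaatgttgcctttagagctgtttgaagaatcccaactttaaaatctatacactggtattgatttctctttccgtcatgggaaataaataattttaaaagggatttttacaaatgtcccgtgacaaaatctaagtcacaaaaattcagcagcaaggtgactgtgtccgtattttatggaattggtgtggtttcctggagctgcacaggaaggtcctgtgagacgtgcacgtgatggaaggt
The SOX6 stretch held 1 CAGCTG. Neither H146-only stretch held a word. Among the 300 central bases of all 381020 regions of both lists, 22.9% held CAGCTG, 16.4% TAATCC, 24.6% CAGATG, 8.50% AACAAAG, 4.98% AACAATG and 1.58% ATGCAAAT.

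Counted over whole regions, matches were described per kb of region sequence, beside the same class over the whole lists. A match to so few letters is not a binding site. TAATCC stood at 1.37 per kb in the 37.4 kb of H82-only regions around the SOX genes and at 0.374 per kb in the 29.4 kb of H146-only regions. Over the whole lists these values were 1.26 and 0.448 per kb, in the same order. The same letters read backwards (CCTAAT) stood at 0.562 and 0.408 per kb around the SOX genes. CAGATG stood at 1.26 per kb of H82-only sequence around the SOX genes and at 0.851 per kb of H146-only sequence, against 1.24 and 0.895 over the whole lists. Its backward reading (GTAGAC) stood at 0.241 and 0.272 per kb around the SOX genes. The other E-box, CAGCTG, stood at 0.857 and 0.749 per kb there. Over the whole lists CAGCTG had the opposite order, at 0.809 and 0.878 per kb.

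AACAATG was found 7 times in H82-only regions (0.187 per kb) and 5 times in H146-only regions (0.170 per kb) around the SOX genes. Over the whole lists the order was the opposite, at 0.117 per kb in H82-only and 0.237 per kb in H146-only regions. The backward reading of AACAATG stood at 0.107 and 0.340 per kb around the SOX genes, in H146-only regions above the word itself. AACAAAG was found 12 times in each class, at 0.321 and 0.408 per kb, against 0.277 and 0.347 over the whole lists. In shared regions AACAATG stood at 0.224 per kb in H82 and 0.219 in H146, above the 0.138 and 0.149 per kb over all shared regions. Its backward reading stood at 0.110 and 0.121 around the SOX genes and at 0.0752 and 0.0795 over all shared regions. For AACAAAG the shared regions around the SOX genes held 0.268 and 0.269 per kb, against 0.240 and 0.247 over all shared regions. The backward reading of AACAAAG stood higher, at 0.286 and 0.285, against 0.178 and 0.191. In shared regions both words and their backward readings were thus denser around the SOX genes than over the whole lists. The shared regions around the SOX genes were also lower in GC, 49.8% in H82 against 53.4% over all shared regions. ATGCAAAT had 0 matches in the H82-only and 2 in the H146-only sequence around the SOX genes.

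The remaining SOX genes and known partners served as a comparison. Of the 10 other SOX genes (SRY, SOX7, SOX8, SOX9, SOX10, SOX13, SOX15, SOX17, SOX18 and SOX30), 7 had a TSS region in both lines, 3 in neither and 0 differed. Their covered share was at least 1.5-fold higher in H82 at 5 of 10 and in H146 at 0 of 10, beside 28.4% and 3.96% of all genes. The median shares of these other SOX genes were 11.3% in H82 and 9.54% in H146. For 1 of those 5, SRY on chromosome Y, no ratio could be formed, since its window held no region in H146. Of 8 partners and targets (POU3F2, POU5F1, PAX6, NES, TUBB3, DCX, COL2A1 and ACAN), 6 had a TSS region in both lines and POU5F1 in neither. PAX6, a neural progenitor factor that pairs with SOX2, had 2 narrow TSS regions in H82, the wider of 363 bp, and none in H146, while its window was covered to 6.29% in H82 and 6.48% in H146.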

How the data were processed

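H82 and H146 cells, untreated or given FHD-286 at 100 nM for 14 days, were profiled by ATAC-seq (13 samples). Per the paper's methods and the submitters' processing notes, the authors trimmed reads with Trim Galore 0.4.4, aligned them to hg38 with Bowtie2 2.3.4, removed duplicates with Picard, called regions per sample with MACS2, dropped blacklisted regions and merged those of a line within 500 bp. They counted reads with featureCounts 1.6.0 and tested them with DESeq2, and those counts were not used here. In H146, 3 controls were sequenced in one batch, and the remaining control with the treated cells in another. Whether cut sites were shifted is not given in the sources used here. The deposited values are region starts and ends in bp, 1 list per line, with no score or sample. There were 0 columns of per-sample values left aside.

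Chromosomes 1 to 22, X and Y (24) were used, with GENCODE release 44. Annotation and files share the hg38 build, and 0 regions ran past the end of a chromosome. Starts were made 1-based. Windows were the gene and 100 kb to either side, and the TSS was the 5′ end of the gene. Code in Python 3.11.15 with NumPy 2.4.6 and pandas 2.3.3 was tested on simulated data. All 10 SOX genes were named, with each region within 1 kb of a TSS and the widest regions and line-only regions; other genes were given by count and named where the lines differed at the TSS, and non-coding genes over a SOX gene or starting within 1 kb of its TSS. Other features singled out were chosen after their values were seen. The genes and lists were chosen with earlier results of these data known. A marker gene and a line-only region that the rules select are not reported here. Since each line gives 1 list, no test was made.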

Additional observations from a re-analysis of the deposited data

How the results depend on the processing

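No paired analysis was possible because the lists carry no samples. With regions of at least 500 bp, 142 H82 and 147 H146 regions were left over the windows, 29 and 38 of them line-only. With 50 kb to either side, H82 had 189 regions and H146 had 173, with 56 and 44 line-only, so the lean of line-only regions between the lines turned with the setting. With 250 kb, H82 had 573 regions and H146 had 563, with 141 and 154 line-only. These counts follow from fewer regions or longer windows. With the number of regions in place of covered share, 3 genes stood 1.5-fold higher in H82, and 7 of 10 were higher there. The same counts over all genes were not made. The TSS count was 9 in H82 with a window of 500 bp, which drops SOX3, and 10 in H146 with 5 kb. Of 54 values of these counts under alternatives, 43 stayed within 1.5 times. SOX3 stayed higher in H82, at log2 ratios from 1.32 to 3.12, with regions of at least 500 bp giving none because H146 then had 0 there. SOX1 stayed higher in H146 (-0.40 to -0.07), and SOX14 and SOX11 in H82, under all alternatives run. SOX2 turned from H146 to H82 only by number (0.10). The small ratios of SOX21, SOX4, SOX12, SOX5 and SOX6 changed sign under 1 or more. The pooled lists set the limit: depth and replicate spread are unknown.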
